A study of Mus musculus with 26 samples.

Results

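The genes described here encode subunits of the Polycomb complexes. They are Ezh1, Ezh2, Eed, Suz12, Jarid2, Mtf2, Ring1, Rnf2, Pcgf6 and Kdm2b, which were picked by name and not by their values. These 10 genes were found by symbol among the 55487 genes of the scRR-seq-RNA table, and all 10 passed the filter of a mean TPM > 1, which 13648 genes passed. scRR-seq reads the RNA and the DNA of the same single cell: after lysis the chromatin is caught on magnetic beads, and the RNA left in solution is made into a total RNA library. The cells were blastomeres of 8-cell mouse embryos, made from C57BL/6 oocytes and sperm by in vitro fertilization and picked by hand, with no treatment or transgene. Of 13 labelled cells from 2 embryos, 9 had columns in the tables: cells 1, 6 and 7 of embryo 1 and cells 2, 3, 5, 6, 7 and 8 of embryo 2.

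Polycomb proteins keep genes repressed by modifying histones. Polycomb repressive complex PRC2 methylates lysine 27 of histone H3 through EZH2 or its paralog EZH1, each held in an active form by EED and SUZ12, while JARID2 and MTF2 are accessory subunits that help the complex find its targets. PRC1 attaches ubiquitin to lysine 119 of histone H2A through RNF2 (RING1B) or its paralog RING1 (RING1A), paired with a PCGF protein. PCGF6 and KDM2B belong to variant PRC1 complexes, where KDM2B binds unmethylated CpG dinucleotides and brings the complex to CpG islands. In the early mouse embryo these complexes act on the maternal and paternal genomes before developmental genes such as the Hox genes are needed.

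Each embryo was 1 biological replicate, so no difference between embryos could be tested, no p-value was computed and SDs describe the spread between cells. The share of 40 kb bins called replicated was 0.00385% to 3.54% in the cells of embryo 1 and 62.4% to 80.5% in those of embryo 2. By copy number the study placed the uniform cells of the first embryo outside S phase, before or after replication, so a low share there may belong to an unreplicated or a fully replicated genome. Embryo and cell cycle stage cannot be told apart. The embryos also differed in sex-linked RNA, Xist lying between 140.0 and 181 TPM in embryo 1 but at most at 0.90 TPM in embryo 2. The number closing each sample title ran from 11 to 17 in 3 cells (embryo 1 cell 1 and embryo 2 cells 2 and 3) and from 20 to 25 in 6 cells. Per the study's sample list the first range used the larger lysis volume (scRR3) and the second the smaller (scRR1), and both ranges held cells of both embryos. In embryo cells the study found that scRR1 coverage leaned to the 3′ end of transcripts, and that scRR1 detected fewer transcripts than scRR3. Each cell had 11058 to 13319 genes with TPM > 1, and 4.28% to 18.2% of its TPM in mitochondrial genes. Of 12 blastomere and oocyte markers, 10 exceeded 1 TPM in every cell, and their summed level ranged from 2064 to 3419.6 TPM (embryo 1) and from 1926 to 2724 TPM (embryo 2). The 8 cumulus or granulosa markers summed to 0 to 6.13 TPM, with 6 of them listed at 0 in every cell (Amh, Fshr, Cyp19a1, Has2, Tnfaip6 and Inha), and the 5 sperm markers summed to 0 to 1.62 TPM.

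Stretches of 4 transcripts are shown first because the results turn on which transcript carries the RNA. Pcgf6, on chromosome 19, has a coding transcript, Pcgf6-201, and one annotated for nonsense-mediated decay, Pcgf6-203. Pcgf6-203 skips an exon of 109 bases and holds another of 18 bases, in which its reading frame ends. Suz12-206 differs from the leading Suz12-201 by the lack of a 69-base exon, a length that keeps the reading frame. Ezh2-213 is a short transcript annotated as a retained intron, which starts 51 bases inside the intron before an internal coding exon. All are GENCODE M21 sequences of GRCm38 (mm10), printed 5′ to 3′ on the strand of the gene. Capitals mark the exon present in one transcript only, the stop codon for Pcgf6-203, and the exonic part for Ezh2-213.
Pcgf6-201, exon at chr19:47045810-47045918, minus strand, 10 flanking bases each side: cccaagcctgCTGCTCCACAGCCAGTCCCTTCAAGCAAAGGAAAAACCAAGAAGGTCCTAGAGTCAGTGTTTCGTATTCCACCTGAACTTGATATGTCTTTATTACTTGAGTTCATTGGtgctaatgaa
Pcgf6-203, exon at chr19:47042122-47042139, minus strand, 10 flanking bases each side: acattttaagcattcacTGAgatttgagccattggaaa
Suz12-201, exon at chr11:79999057-79999125, plus strand, 10 flanking bases each side: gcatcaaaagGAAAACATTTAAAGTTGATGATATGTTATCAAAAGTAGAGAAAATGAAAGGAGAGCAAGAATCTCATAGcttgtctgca
Ezh2-213, start at chr6:47532036-47532116, minus strand: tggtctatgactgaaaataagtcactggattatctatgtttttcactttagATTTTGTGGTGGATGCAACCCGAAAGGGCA

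All 10 genes exceeded 1 TPM in all 9 cells, where 52.9% of the genes with a mean TPM > 1 did so. Of the 10, 8 had a mean above 50 TPM and lay above the 80th percentile of those genes by mean level, whose median was 9.79 TPM. The exceptions were the minor paralogs Ring1, at the 48.6th percentile, and Ezh1, at the 24.9th. The order by mean gene TPM was Suz12, Ezh2, Eed, Jarid2, Mtf2, Kdm2b, Rnf2, Pcgf6, Ring1 and Ezh1. Most neighbours in this order did not keep it from cell to cell: Suz12 exceeded Ezh2 in 5 of 9 cells, Jarid2 exceeded Mtf2 in 5 of 9 and Eed exceeded Jarid2 in 5 of 9. Rnf2 over Pcgf6, Pcgf6 over Ring1 and Ring1 over Ezh1 held in 9 of 9 cells. The order also depended on the transcripts counted. By protein-coding transcripts alone Suz12 stayed at rank 1, but Jarid2 and Mtf2 were at ranks 2 and 3 and Ezh2 at rank 7.

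**Figure D1:**
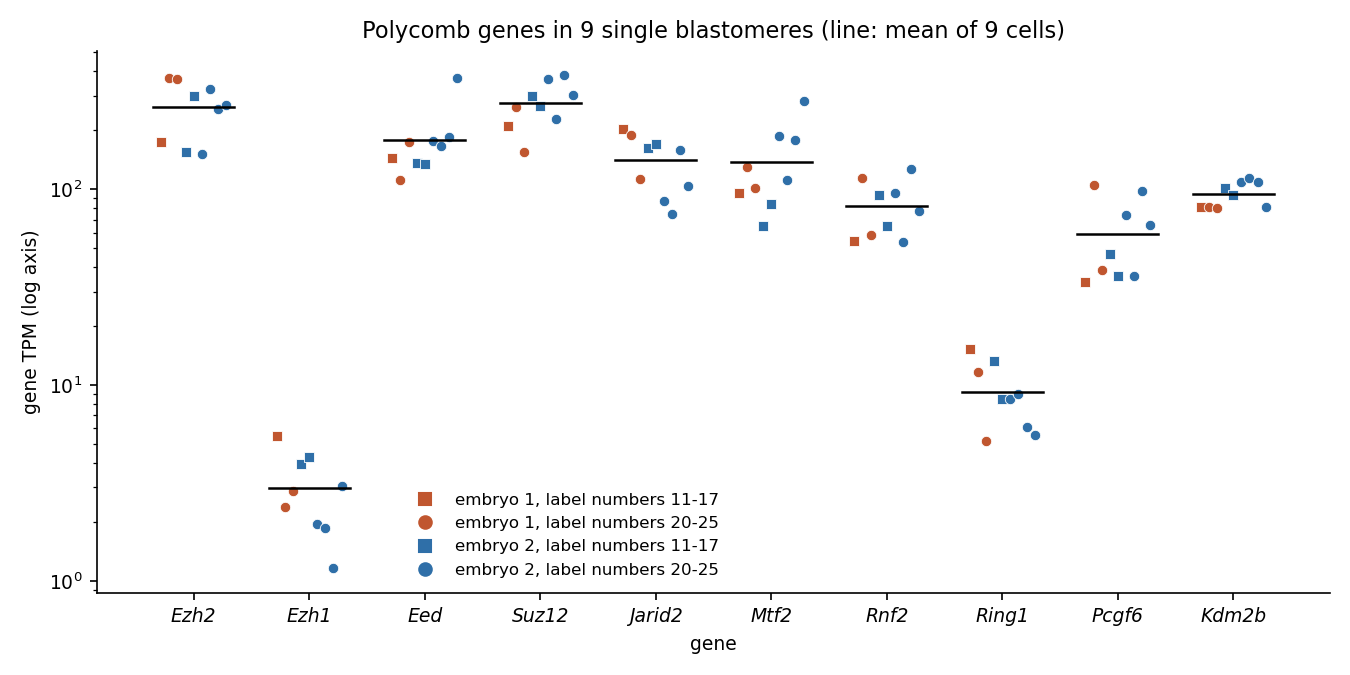
Gene TPM (log axis) of the 10 Polycomb genes in each of the 9 cells, coloured by embryo and shaped by label-number range, with a line at the mean of the 9 cells. Ezh1 lies at 1.16 to 5.47 TPM and Ring1 at 5.18 to 15.3 TPM, below the other 8 genes in every cell.

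Ezh2, the main histone H3 lysine 27 methyltransferase, was at 175, 370.0 and 367 TPM in cells 1, 6 and 7 of embryo 1. In embryo 2 its lowest, median and highest values were 151, 262 and 326 TPM. The ranges of the embryos overlapped, and the mean of all 9 cells was 263 ± 86.3 TPM (SD, n = 9 cells). Ezh1, its less active paralog, was at 5.47, 2.37 and 2.87 TPM in embryo 1 and had a lowest, median and highest value of 1.16, 2.50 and 4.27 TPM in embryo 2. Its 3 highest cells were the 3 with label numbers 11 to 17, and those cells lay above all 6 others, as they did for 6.13% of genes with a mean TPM > 1. Ezh2 exceeded Ezh1 in 9 of 9 cells, by 32.0-fold at the lowest, 87.5-fold at the median and 221-fold at the highest. On the log2(TPM + 1) scale the ratio was 6.04 ± 0.80 (SD, n = 9 cells), with means of 6.04 in embryo 1 and 6.05 in embryo 2.

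The size of that ratio depended on the transcripts counted. Ezh2-213, a 500-base transcript over 3 exons near the 3′ end of the gene (chromosome 6, 47530319 to 47532116), held 46.4% to 82.0% of the Ezh2 TPM of a cell. TPM divides by transcript length, so reads assigned to a short transcript weigh more. When the TPM of each transcript was weighted by its annotated length and divided by that of the longest transcript of the gene, the mean Ezh2 level was 80.5 TPM in place of 263. Its protein-coding transcripts alone summed to a mean of 59.8 TPM. The Ezh2 to Ezh1 ratio was then 4.68 ± 0.57 (log2, length-weighted) or 4.33 ± 0.79 (log2, protein-coding only; SD, n = 9 cells for each), and Ezh2 was still higher in 9 of 9 cells, by at least 9.87-fold in the protein-coding sum. The promoters of the pair are both rich in CpG dinucleotides, with 31 in the 300 bases around the Ezh2 start and 23 around that of Ezh1. Among 32851 RefSeq promoters of that length (GRCm38.p6, 250 bases before to 50 after a start), 10.6% held at least 31 and 21.5% at least 23. They are printed because their genes stand furthest apart in level among the related pairs, with each CG in capitals.
Ezh2 promoter, chr6:47594981-47595280, minus strand: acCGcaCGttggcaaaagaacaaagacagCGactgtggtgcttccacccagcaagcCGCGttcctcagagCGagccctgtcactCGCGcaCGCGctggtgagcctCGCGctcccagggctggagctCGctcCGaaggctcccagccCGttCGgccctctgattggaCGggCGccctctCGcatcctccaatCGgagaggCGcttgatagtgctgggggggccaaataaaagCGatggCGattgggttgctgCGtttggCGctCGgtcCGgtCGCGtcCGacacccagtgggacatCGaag
Ezh1 promoter, chr11:101226414-101226713, minus strand: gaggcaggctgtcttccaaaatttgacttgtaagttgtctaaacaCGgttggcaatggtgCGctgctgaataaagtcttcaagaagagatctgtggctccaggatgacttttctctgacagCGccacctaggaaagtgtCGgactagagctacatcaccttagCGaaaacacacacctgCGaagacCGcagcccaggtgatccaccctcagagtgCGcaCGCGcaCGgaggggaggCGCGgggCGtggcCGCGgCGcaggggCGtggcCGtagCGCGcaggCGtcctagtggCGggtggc

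Eed, which binds trimethylated lysine 27 and stimulates the enzyme, was at 145, 111 and 175 TPM in embryo 1. In embryo 2 its lowest, median and highest values were 134, 171 and 372 TPM. The highest value was that of cell 8 alone, and the next highest was 186 TPM, in cell 7. The matched transcript with the highest mean was Eed-205, of 767 bases and at the 3′ end of the gene. Its share of Eed TPM was above 50% in 5 of 9 cells, and it held 32.7% to 45.4% in the cells numbered 11 to 17 and 49.4% to 74.9% in the cells numbered 20 to 25. The part of the 3′ bias of scRR1 in this split was not tested. Between 3.18% and 37.8% of Eed TPM in a cell belonged to transcripts that GENCODE M21 did not match, so a length-weighted Eed level would be incomplete and is not given as a level.

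Suz12, the scaffold of PRC2, had the highest mean of the 10 genes, 275 ± 72.2 TPM (SD, n = 9 cells). It was at 210.2, 264 and 155 TPM in embryo 1 and had a lowest, median and highest value of 229.5, 301 and 381 TPM in embryo 2. Only cell 6 of embryo 1 reached into the range of embryo 2. Suz12-201 held 20.9% to 100% of the Suz12 TPM and Suz12-206, which lacks the 69-base exon printed above, held 0% to 76.3%. Cell 6 of embryo 2 was the one cell in which Suz12-206 exceeded Suz12-201, at 175 against 47.9 TPM. Suz12-206 was listed at 0 in 2 cells, 1 of each embryo.

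The accessory subunits Jarid2 and Mtf2 mark different forms of PRC2. Jarid2, a Jumonji family protein without demethylase activity, was at 204, 188 and 113 TPM in embryo 1 and had a lowest, median and highest value of 74.8, 132 and 169 TPM in embryo 2. Mtf2, one of the Polycomb-like proteins that bind CpG-rich DNA, was at 95.4, 130.0 and 101 TPM in embryo 1 and had a lowest, median and highest value of 64.6, 145 and 282 TPM in embryo 2. Mtf2 exceeded Jarid2 in 4 of 9 cells, all 4 of embryo 2 and with label numbers 20 to 25. The log2 ratio of Mtf2 to Jarid2 was -0.10 ± 0.98 from all transcripts (SD, n = 9 cells). It was 0.20 ± 1.09 when length-weighted and -0.45 ± 1.27 from protein-coding transcripts, so the sign of its mean depended on the transcripts counted. From all transcripts it was -1.32 to -0.999 in the 3 cells numbered 11 to 17 and -0.53 to 1.42 in the 6 cells numbered 20 to 25. Those ranges did not overlap. Mtf2 itself was lower in every cell numbered 11 to 17 than in any cell numbered 20 to 25, as were 1.24% of genes with a mean TPM > 1. The part of the protocol difference in this was not tested. The transcripts with the highest means were long coding forms, Jarid2-208 with 52.4% to 98.6% of Jarid2 TPM and Mtf2-201 with 36.0% to 93.4% of Mtf2 TPM. In the cells numbered 11 to 17 Mtf2-201 held only 36.0% to 45.1%.

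**Figure D2:**
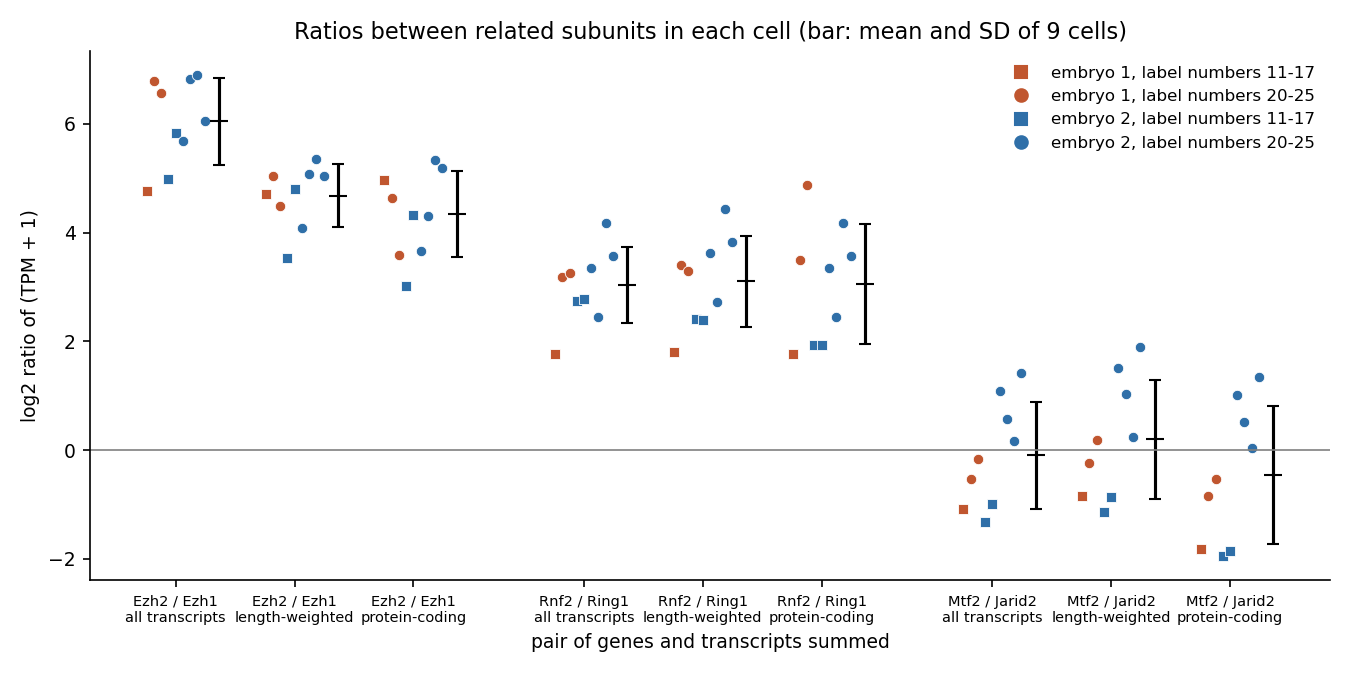
Log2 ratio of (TPM + 1) for Ezh2 over Ezh1, Rnf2 over Ring1 and Mtf2 over Jarid2 in each of the 9 cells, from all transcripts, length-weighted transcripts or protein-coding transcripts, with the mean and SD of the 9 cells at the right of each set. The first pair lies above 3 and the second above 1.7 in every cell on all 3 scales, while Mtf2 over Jarid2 lies on both sides of 0.

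In PRC1, Rnf2, the main H2A ubiquitin ligase, was at 54.3, 114 and 58.2 TPM in embryo 1 and had a lowest, median and highest value of 53.6, 85.3 and 127 TPM in embryo 2. Ring1 was at 15.3, 11.6 and 5.18 TPM in embryo 1 and had a lowest, median and highest value of 5.56, 8.50 and 13.2 TPM in embryo 2. Rnf2 exceeded Ring1 in 9 of 9 cells. From all transcripts the ratio was lowest in cell 1 of embryo 1, at 3.55-fold, and highest in cell 7 of embryo 2, at 20.9-fold. The log2 ratio was 3.03 ± 0.70 from all transcripts, 3.10 ± 0.83 when length-weighted and 3.06 ± 1.10 from protein-coding transcripts (SD, n = 9 cells for each). Its mean thus moved little with the transcripts counted, while single cells moved more. With protein-coding transcripts it was 57.6-fold in place of 11.2-fold in cell 7 of embryo 1, and 4.04-fold in place of 7.08-fold in cell 2 of embryo 2. A short noncoding transcript, Rnf2-202, held 50.9% and 45.5% of Rnf2 TPM in cells 2 and 3 of embryo 2 and was listed at 0 in the other 7 cells. In cell 7 of embryo 1, Ring1-201, the coding transcript, held 19.5% of Ring1 TPM, against 79.0% to 100% in the other cells.

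Pcgf6, the RING finger partner of Rnf2 in the variant complex that also holds MGA and L3MBTL2, was at 33.6, 105 and 38.5 TPM in embryo 1. In embryo 2 its lowest, median and highest values were 36.0, 56.0 and 98.4 TPM. The transcript assigned to those levels differed from cell to cell. Pcgf6-201, the coding form, held 94.1% in cell 1 of embryo 1 and 87.0% and 100% in cells 2 and 3 of embryo 2, the cells numbered 11 to 17. Pcgf6-203, whose frame ends in the 18-base exon printed above, exceeded Pcgf6-201 in 0 of those 3 cells and in 5 of the 6 cells numbered 20 to 25. In those 6 cells it held 92.1% and 93.5% in cells 6 and 7 of embryo 1, and 59.9%, 9.40%, 93.3% and 89.8% in cells 5, 6, 7 and 8 of embryo 2. Cell 6 of embryo 2 thus fell with the first range, and the ranges of share overlapped because of it. These shares are RSEM estimates for transcripts that share most of their exons, and the part of read coverage in them was not tested.

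Among the 26 transcripts of the 10 genes with a mean of at least 5 TPM, the share of its gene was lower in all cells numbered 11 to 17 than in all cells numbered 20 to 25 for Eed-205, Mtf2-201 and Rnf2-201, 3 of 26. This held for 5.33% of 10822 such transcripts. The share was higher in the first range for Ezh2-201, the 2787-base full-length form, against 5.00% of such transcripts. The part of the 3′ bias of scRR1 in these splits was not tested. Between embryos, the share of Kdm2b-208 was higher in every cell of embryo 2, against 0.665% of such transcripts, and no share was lower in every cell of embryo 2, against 0.712%.

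**Figure D3:**
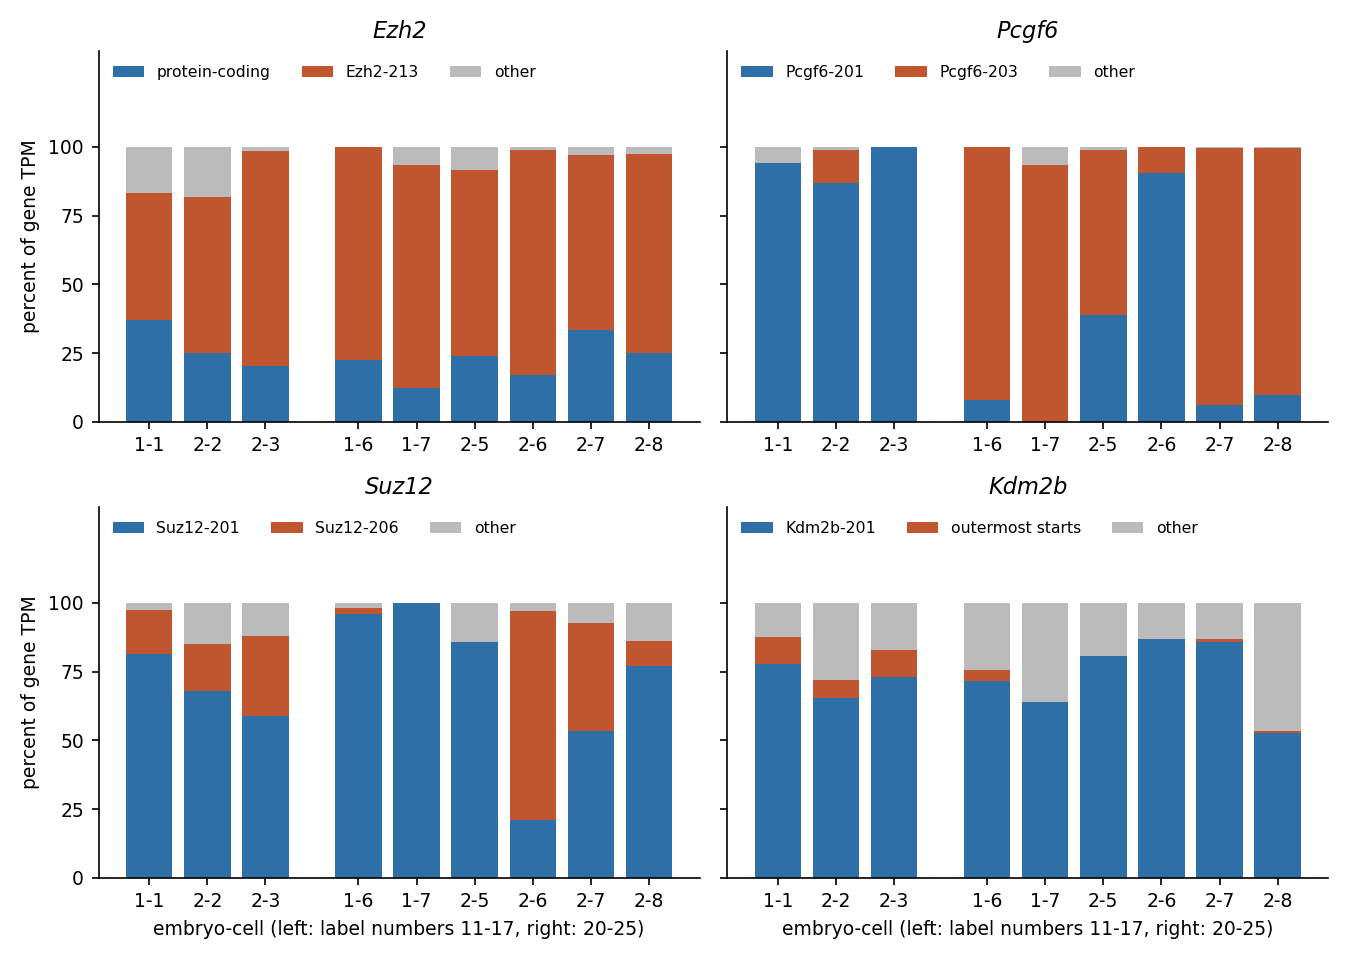
Percent of the TPM of Ezh2, Pcgf6, Suz12 and Kdm2b assigned to the named transcripts in each cell, written as embryo and cell, with label numbers 11 to 17 at the left and 20 to 25 at the right. Ezh2-213 holds 46.4% to 82.0% of Ezh2, Pcgf6-203 exceeds Pcgf6-201 in 5 of 6 cells at the right, and Kdm2b-201 holds 52.8% to 86.8% of Kdm2b, against 0% to 9.94% for transcripts from the outermost starts.

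In gene TPM, Kdm2b varied least of the 10 genes, with a pooled SD between cells within embryos of 0.15 on the log2(TPM + 1) scale. It was at 80.7, 81.2 and 79.9 TPM in embryo 1 and had a lowest, median and highest value of 81.4, 105 and 115 TPM in embryo 2. Every cell of embryo 2 was above every cell of embryo 1, but cell 8 of embryo 2 by only a small step, and 0.843% of genes with a mean TPM > 1 showed such a separation. The gene, on chromosome 5, has distant upstream starts for the long form with the Jumonji demethylase domain and an internal start for a short form that keeps the CpG-binding CXXC domain. The short coding form Kdm2b-201 was at 43.0 to 99.4 TPM and held 52.8% to 86.8% of Kdm2b TPM. It was at 62.7, 58.2 and 51.2 TPM in embryo 1 and lowest in cell 8 of embryo 2, at 43.0 TPM. The separation of the embryos seen in gene TPM therefore did not hold for this coding form. The 8 transcripts that begin within 2000 bases of the outermost annotated start together held 0% to 9.94% of Kdm2b TPM, with a median of 0.995%, and were listed at 0 in 3 cells. One of them was a coding transcript with RNA, the long form Kdm2b-203, at 4.60 TPM in cell 1 of embryo 1 and 8.89 TPM in cell 3 of embryo 2 and listed at 0 in the other 7 cells. A further 7.35% to 33.1% was in transcripts that begin between the outermost and the internal starts, led by the 550-base noncoding Kdm2b-208 with 0 to 17.9 TPM. The windows of 300 bases around 2 neighbouring internal starts held 49 and 47 CpG dinucleotides, counts reached by 1.02% and 1.44% of the 32851 promoters. Around the outer starts, the window that holds the 5′ end of Kdm2b-203 had 18, a count reached by 29.7%, and the other had 28, a count reached by 14.2%. An internal window and that of Kdm2b-203 are printed with each CG in capitals, since they belong to the short and the long coding forms that had RNA.
Kdm2b promoter, internal start, chr5:122900318-122900617, minus strand: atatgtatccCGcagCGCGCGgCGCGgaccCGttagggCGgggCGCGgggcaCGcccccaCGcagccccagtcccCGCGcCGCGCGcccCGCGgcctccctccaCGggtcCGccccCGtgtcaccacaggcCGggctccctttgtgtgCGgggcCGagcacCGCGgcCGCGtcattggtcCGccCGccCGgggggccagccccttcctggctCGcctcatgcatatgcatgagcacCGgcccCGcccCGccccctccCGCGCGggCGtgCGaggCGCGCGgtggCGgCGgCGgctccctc
Kdm2b promoter, start of the long form Kdm2b-203, chr5:122988458-122988757, minus strand: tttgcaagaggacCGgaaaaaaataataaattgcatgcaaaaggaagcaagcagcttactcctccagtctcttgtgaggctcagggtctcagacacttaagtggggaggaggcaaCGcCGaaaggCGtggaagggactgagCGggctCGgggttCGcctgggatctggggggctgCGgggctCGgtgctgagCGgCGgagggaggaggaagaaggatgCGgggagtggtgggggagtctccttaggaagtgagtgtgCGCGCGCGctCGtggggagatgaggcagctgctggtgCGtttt

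Between the embryos, none of the 10 genes differed by 2-fold in mean log2(TPM + 1), where 7.69% of the 13648 genes were at least 2-fold higher in embryo 2 and 10.7% at least 2-fold lower. Over all genes with any signal these shares were 4.36% and 6.72%. The differences, given as embryo 2 minus embryo 1, ran from -0.44 for Jarid2 to 0.56 for Suz12. Their median was 0.15, beside -0.04 over all 13648 genes, with 6 genes positive and 4 negative. The difference exceeded the pooled SD between cells for Suz12 (0.56, SD 0.31) and Kdm2b (0.32, SD 0.15) and for no other member. Suz12 stayed at 0.36 to 0.74 and Kdm2b at 0.28 to 0.38 when each cell was left out in turn. Within the cells numbered 11 to 17 they were 0.42 and 0.26, and within those numbered 20 to 25 they were 0.63 and 0.34. The members that fell short of their SD were Eed at 0.36, Mtf2 at 0.31, Rnf2 at 0.20, Pcgf6 at 0.10, Ring1 at -0.24, Ezh2 at -0.31, Ezh1 at -0.31 and Jarid2 at -0.44. For Ezh2, Eed and Mtf2 the sign within the cells numbered 11 to 17 was opposite to that within 20 to 25. Ring1 turned to 0.06 without cell 1 of embryo 1 and to 0.37 with protein-coding transcripts alone, Rnf2 turned to -0.11 with those transcripts, and Pcgf6 turned negative without cell 1 or 7 of embryo 1 or cell 7 of embryo 2, at -0.20, -0.10 and -0.06. When protein-coding transcripts alone were summed, Pcgf6 was 1.63 higher in embryo 2. The 3 cells of embryo 1 had 31.7, 8.28 and 0 TPM of coding Pcgf6. The cells of embryo 2 had 6.19 to 40.4 TPM, so the ranges overlapped. That difference was not recomputed with cells left out, and no share over all genes was computed for coding transcripts.

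**Figure D4:**
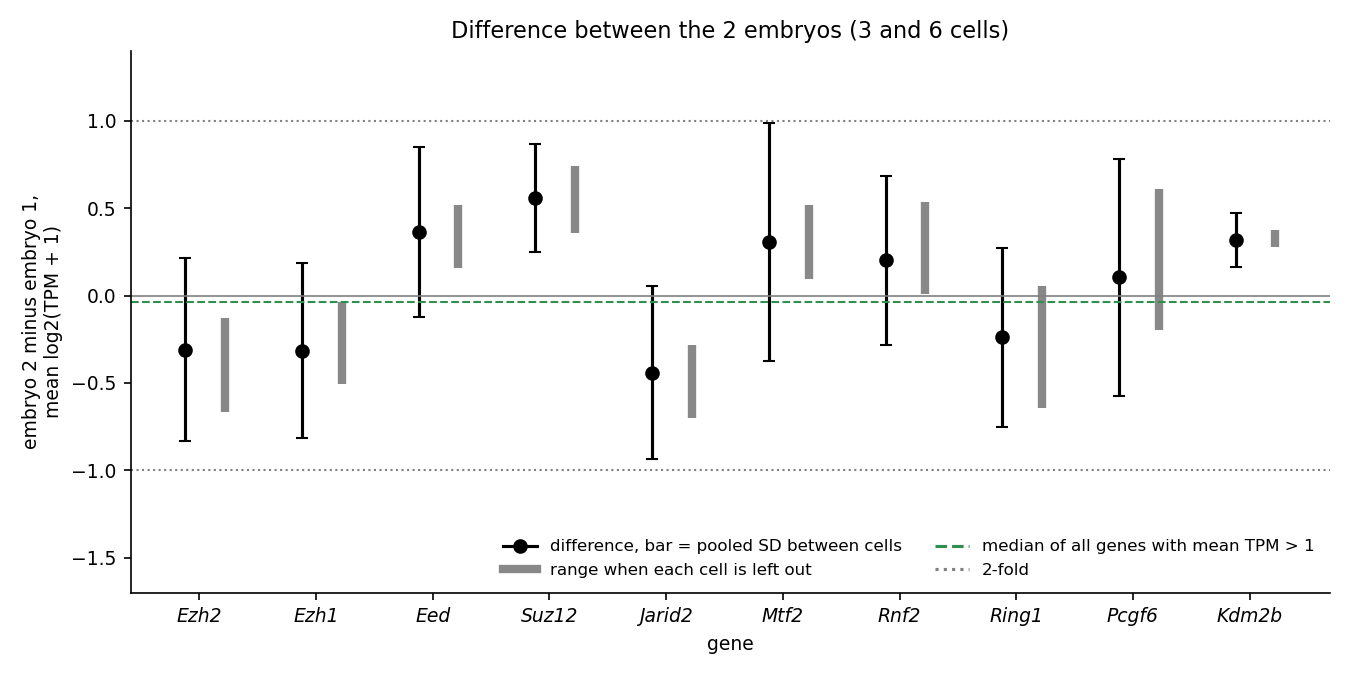
Mean log2(TPM + 1) of embryo 2 less that of embryo 1 for each gene (points; bars are the pooled SD between cells), with the range when each cell is left out in turn in grey, 2-fold as dotted lines and the median of all genes with mean TPM > 1 as a dashed line. All 10 points lie between the dotted lines, and the bars of Suz12 and Kdm2b stay above 0.

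The spread between cells of the same embryo was smaller for each of the 10 genes than the median over all genes. Their pooled SD ran from 0.15 for Kdm2b to 0.68 for Mtf2, with a median of 0.50, beside 0.85 over all genes with a mean TPM > 1. That comparison is a description, since genes with low TPM vary more. Between the label-number ranges, no member differed by 2-fold in mean log2(TPM + 1), where 16.1% of genes were at least 2-fold higher in the cells numbered 11 to 17 and 4.67% at least 2-fold lower. The largest such differences were for Mtf2 (-0.94), Ezh1 (0.81) and Pcgf6 (-0.73). Ezh1 kept its direction within embryo 1 (0.84) and within embryo 2 (0.80), as did Mtf2 (-0.26 and -1.27) and Pcgf6 (-0.90 and -0.64).

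Replication of the loci was read from the 40 kb bins that each gene overlaps. In mm10 the genes lie on 8 chromosomes: Rnf2 at chr1:151458004-151500955, Mtf2 at chr5:108065674-108109004, Kdm2b at chr5:122870665-122989823, Ezh2 at chr6:47530139-47595341, Eed at chr7:89954654-89980983, Suz12 at chr11:79993106-80034123, Ezh1 at chr11:101191115-101226463, Jarid2 at chr13:44729474-44921643, Ring1 at chr17:34020792-34024680 and Pcgf6 at chr19:47033617-47050906. Chromosome 6, which holds Ezh2, was not analysed here, and the other 9 genes overlapped 23 bins. All 9 loci were replicated in all 6 cells of embryo 2, as were 74.4% of 11257 genes with a mean TPM > 1 and a state in those cells. By the bin of the gene start alone it was 8 loci, since that bin of Suz12 had no data in cell 8 of embryo 2. The states of embryo 1 are not read for single loci, since a uniform genome may be called alike before and after replication. The 9 loci therefore did not differ in state between the cells of embryo 2, and their RNA levels could not be compared by state within that embryo.

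The other genes of the Polycomb system were taken from fixed lists. The counts for each list stand beside the shares over all 13648 genes with a mean TPM > 1. Of those genes 52.9% exceeded 1 TPM in every cell, 7.69% were at least 2-fold higher in embryo 2 and 10.7% at least 2-fold lower. Of 15 PRC2 genes, 14 had a mean TPM > 1 and 10 exceeded 1 TPM in every cell. The histone-binding subunits were abundant, Rbbp7 at 167 to 440.4 TPM and Rbbp4 at 91.4 to 228 TPM. Phf19, a Polycomb-like paralog of Mtf2, was listed at 0 in all 9 cells, and Phf1, the other paralog, was at 0 to 3.13 TPM. Of the 14, 2 were at least 2-fold lower in embryo 2 and 0 higher: Epop, an accessory subunit, by -2.18, which had 18.6, 3.69 and 38.0 TPM in the cells of embryo 1 against 0.29 to 4.75 TPM in those of embryo 2, and Ezhip, an inhibitor of EZH2 listed under the symbol AU022751, by -1.62, which had 7.28, 2.97 and 6.97 TPM against 0 to 4.52 TPM. The ranges of the embryos overlapped for both genes. Ezhip lies on chromosome X, and the part of the sex-linked difference between the embryos in it was not tested.

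Among the PRC1 RING and PCGF genes, all 8 exceeded 1 TPM in every cell. The 6 PCGF paralogs summed to 205 to 310 TPM per cell, and 3 of them made up most of it on average: Pcgf5 with 26.98%, Pcgf1 with 23.9% and Pcgf6 with 22.4%. Pcgf2 (11.4%), Bmi1 (9.71%) and Pcgf3 (5.54%) held the rest, Pcgf2 and Bmi1 being the partners used by canonical PRC1. These shares count all transcripts of a gene. For Pcgf6 the coding transcript had a mean of 21.1 TPM against 59.2 TPM for the gene. Coding RNA of the other paralogs was not summed, so shares of coding RNA are not given. Pcgf2 was the one gene of the list past 2-fold, by 2.01, with 3.80, 4.44 and 23.8 TPM in the cells of embryo 1 against 16.9 to 67.0 TPM in those of embryo 2, and the ranges overlapped through cell 7 of embryo 1. Bmi1 differed by -0.65 and Pcgf3 by 0.69, each less than its pooled SD between cells.

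The canonical PRC1 genes described here had a list median of 2.31 TPM, beside 132 TPM for the PRC2 list and 32.6 TPM for the variant PRC1 list. Not all were low: Scmh1 and Cbx7 had means of 18.4 and 11.5 TPM. Both lay above the median of 9.79 TPM over all genes with a mean TPM > 1. Of 9 such genes, 6 had a mean TPM > 1 and 4 exceeded 1 TPM in every cell, namely Cbx7, Phc1, Phc2 and Scmh1. Of the CBX genes, whose proteins bind trimethylated lysine 27, the 4 described here (Cbx2, Cbx6, Cbx7 and Cbx8) summed to 3.39 to 30.1 TPM per cell, and Cbx7 held 73.4% of that on average. Cbx2, Cbx6 and Cbx8 had means of 0.87, 0.59 and 2.31 TPM. Of those 9 genes, Cbx7 and Scml2 had the largest differences between the embryos (embryo 2 minus embryo 1, on the log2(TPM + 1) scale), at -0.97 and -0.90 with pooled SDs of 0.86 and 1.12, and the cells of the embryos overlapped for both. Scml2 lies on chromosome X, and the part of the sex-linked difference between the embryos in it was not tested. Phc1 and Phc2 were at 1.23 to 21.3 and 2.06 to 20.0 TPM, and Phc3 was at 0 to 1.59 TPM. Rybp and its paralog Yaf2, which occupy the CBX position in variant PRC1, summed to 18.6 to 134 TPM, which was 1.81-fold to 25.7-fold the sum of those 4 CBX genes in the same cell. Rybp held 91.6% of that pair on average.

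**Figure D5:**
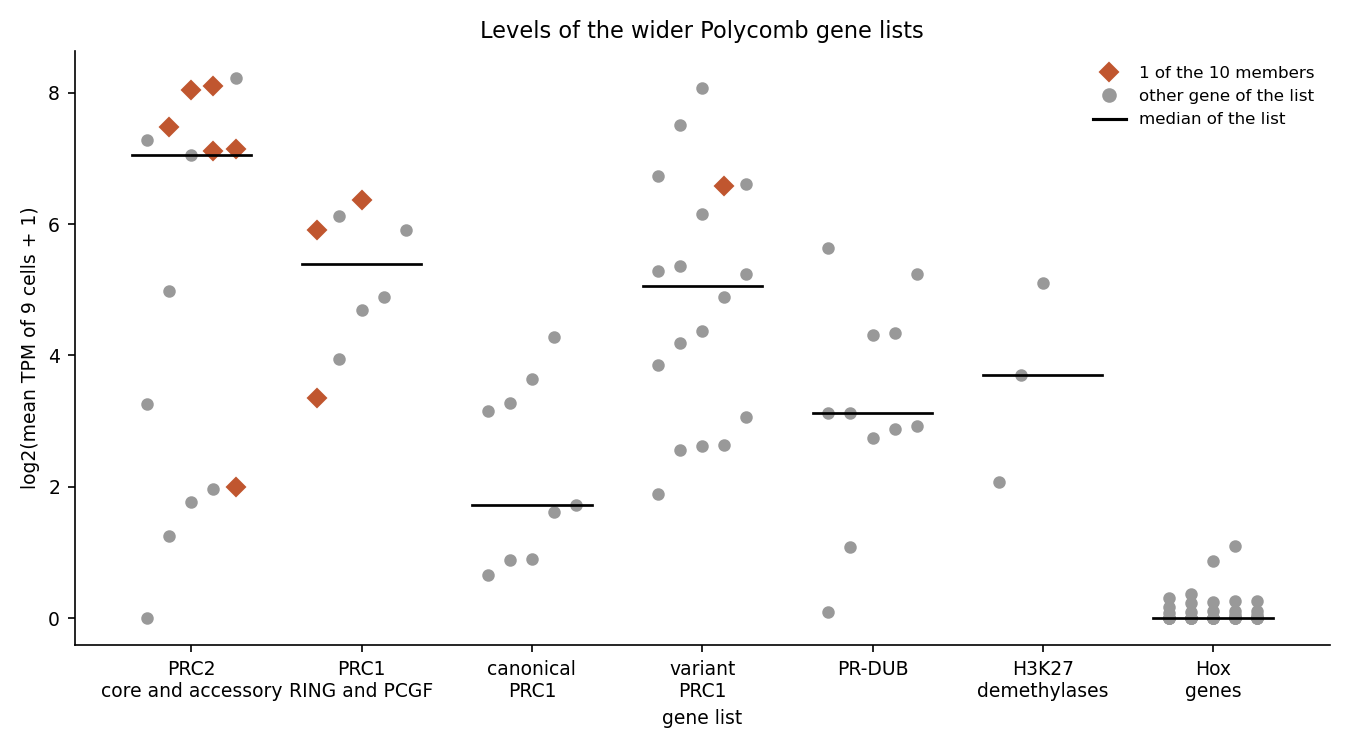
Log2 of the mean TPM of the 9 cells plus 1 for every gene of 7 lists, with the 10 members as diamonds and the list median as a line. The PRC2 list has a median of 132 TPM, the canonical PRC1 list one of 2.31 TPM, and the Hox list one of 0.

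Of 18 variant PRC1 genes, all had a mean TPM > 1 and 16 exceeded 1 TPM in every cell. Skp1, a ubiquitin ligase adaptor listed as Skp1a, and Wdr5, a WD40 scaffold protein, were highest, with means of 268 and 181 TPM. Differences of 2-fold were seen for Bcor (1.07) and Rybp (1.04), which were higher in embryo 2, and for Bcorl1 (-1.85), which was lower. Bcorl1, a paralog of the corepressor Bcor, had values of 8.67, 5.17 and 4.13 TPM in the cells of embryo 1 against 0 to 3.02 TPM in those of embryo 2, so that every cell of embryo 2 was below every cell of embryo 1, as for 2.51% of genes. Bcor and Bcorl1 lie on chromosome X, and the part of the sex-linked difference between the embryos in them was not tested. The Rybp difference rested on cell 7 of embryo 1, which had 11.6 TPM while the other 8 cells had 83.1 to 132 TPM, and it was 0.02 without that cell. It also fell just under 2-fold without cell 2, 3 or 5 of embryo 2, at 0.99, 0.999 and 0.99, and the Bcor difference did so without cell 6 of embryo 1 or cell 5 or 7 of embryo 2, at 0.98, 0.84 and 0.87.

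The lists for the removal of Polycomb marks had medians of 7.75 TPM (PR-DUB) and 12.01 TPM (lysine 27 demethylases). Both lay below the PRC2 and variant PRC1 medians of 132 and 32.6 TPM and above the canonical PRC1 median of 2.31 TPM. Of 11 genes of the PR-DUB complex, which removes ubiquitin from H2A, 9 exceeded 1 TPM in every cell, led by Hcfc1 at 30.5 to 80.1 TPM and Ogt at 16.01 to 57.6 TPM. One of them, Asxl2, was past 2-fold, by 1.21, and Foxk1 was next below that threshold in size at -0.68. The lysine 27 demethylases Kdm6a and Kdm6b were at 11.7 to 56.8 and 2.23 to 25.7 TPM, and differed by 0.00 and -0.68 between embryos. The Y-linked Uty was 1.11 higher in embryo 2, or 0.90 without cell 6 of embryo 1 and 0.94 without cell 5 of embryo 2. Uty is a close homolog of Kdm6a, and reads that match both may have been split between them. Of 39 Hox genes, classical targets of Polycomb repression, 23 were listed at 0 in every cell, 33 exceeded 1 TPM in no cell and the highest single value was 4.87 TPM. Over all 55487 genes, 24206 were above 0 in some cell and 24.6% had a mean TPM > 1. Values of 0 were therefore not particular to the Hox genes. Hoxd8 was the one Hox gene with a mean TPM > 1, and it differed by -0.47 between embryos.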

How the data were processed

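The authors deposited TPM values of genes and transcripts, 1 column per cell without pooling, which they made with ramdaq by aligning reads cut to a common number (Hisat) and estimating abundance (RSEM, GENCODE M25, mm10). TPM keeps no read depth, so no counting interval was computed. The authors also deposited a replication state score of 1, -1 or 0 (no data) for each 40 kb bin, from BWA 0.7.17-r1188 alignments (per the submitters' notes) called with AneuFinder. RNA headers named the same embryo and cell throughout so the number at their end, found in 1 RNA title each, decided the cell. Each of the 3 tables held 14 columns of no labelled sample, which were not used. The 10 members and all gene lists were chosen with earlier results of these data known.

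Differences were computed as means of log2(TPM + 1), which understates changes of low genes, and read against the SD between cells pooled over the embryos. A 2-fold difference was the call, and genes with a mean TPM > 1 were the background. Replicates are cells, so no test was run. A gene's replication state was the sign of the mean of its bins. Names and positions came from GENCODE M21 of the same build by unversioned identifier, and 106 member transcripts matched, all with equal versions, while 9 of 10 member genes had equal versions. Some Eed transcripts did not match. Named genes were the 10 members, the PCGF, CBX and PHC paralogs, Rbbp4, Rbbp7, Kdm6a and Kdm6b, the 2 highest and the 2 most different genes of each list, and transcripts with a mean of at least 5 TPM. Phf1, Phf19, Rybp, Yaf2 and Hox values outside that rule, and the transcripts with less RNA, were named after their values were seen. A gene of the canonical PRC1 list is not reported here. Calculations were checked on simulated data and used Python 3.11.15, numpy 2.4.6, pandas 2.3.3 and matplotlib 3.10.9.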

Additional observations from a re-analysis of the deposited data

Results flagged for a closer look

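For 25 measures of the 10 genes (levels, ratios and transcript shares), the highest or lowest of the 6 cells of embryo 2 was compared with the others, and chance alone marks about 1 in 20 such groups. Eed in cell 8 of embryo 2 was at 8.54 on the log2(TPM + 1) scale, while the other 5 cells lay between 7.08 and 7.55. Mtf2 was also highest in this cell, at 282 TPM, and 16.7% of its TPM was mitochondrial. Jarid2-208 held 52.4% of Jarid2 TPM in cell 2 of embryo 2, against 89.1% to 98.0% in the other 5 cells, with Jarid2-201 and Jarid2-210 at 27.7 and 26.6 TPM in that cell. Ring1-201 held 86.1% of Ring1 TPM in the same cell and 100% in the other 5. Because those 5 were tied at 100%, any lower value would have been marked, and the rate of 1 in 20 does not hold for this share.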

How the results depend on the processing

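No paired analysis was possible because the results come from no test. Each member difference was recomputed under 18 alternatives, and 177 of 180 values moved by less than the pooled SD between cells. That count does not mean that signs held. Mtf2 went from 0.31 to -0.37 in the cells numbered 11 to 17, within its SD of 0.68. The length-based values of Eed in the count are incomplete, since some of its transcripts did not match. The median difference over the members was 0.15 and ran from -0.02 to 0.26 when 1 cell was left out, the lowest without cell 7 of embryo 1. The count of members past 2-fold was 0, and was 1 (Pcgf6) with protein-coding transcripts alone. There cell 7 of embryo 1 had 0 TPM of coding Pcgf6, and the share of all genes past 2-fold was not computed. The log2 ratio of Ezh2 to Ezh1 was 6.04, and was 4.33 with protein-coding transcripts, 4.68 when length-weighted, 3.98 with transcripts of at least 1000 bases and 5.19 in the cells numbered 11 to 17. The ratio of Mtf2 to Jarid2 was -0.10, and was 0.20 when length-weighted, -0.45 with protein-coding transcripts and -1.14 in the cells numbered 11 to 17. It ran from -0.29 to 0.06 when 1 cell was left out, Ezh2 to Ezh1 from 5.94 to 6.20 and Rnf2 to Ring1 from 2.89 to 3.19. All 10 members exceeded 1 TPM in every cell, and 8 did with protein-coding transcripts alone. The length-based alternatives, and the protein-coding counts, were chosen after seeing the data. The causes of these shifts were not tested. TPM keeps no depth, so how many reads stand behind a low value such as those of Ezh1 is unknown.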
